A study of Malus domestica with 2 samples.

Results

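The gene models described here are those of apple (Malus domestica) whose annotation names a lipid-transfer protein, a bifunctional inhibitor or a trypsin-alpha amylase inhibitor. They were found by searching those words, without regard to case, in the authors' deposited annotations, and no minimum count was set. The search found 139 of 63541 gene models. All 13 gene models that the words found on the authors' sheets of differing genes were among those 139. Messenger RNA was sequenced on a Roche 454 GS-FLX pyrosequencer from the central and the lateral pedicel of Saika, a cultivar that the series title calls self-abscising. A pedicel is the stalk that joins a fruit to its cluster. Each kind of pedicel gave 1 library, with no treatment named for either, so the values below have no replicate check. A test on their counts says at most whether the counts of these 2 libraries differ, and nothing about central and lateral pedicels in general. The sources used here do not give the age of the fruits or say whether several pedicels were pooled.

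Plant lipid-transfer proteins are small, cysteine-rich proteins that carry a signal peptide, and their helices close around a pocket that holds a fatty acid or another lipid. They share this fold with the 2S albumins, which are seed storage proteins, and with inhibitors of alpha-amylase and trypsin, so annotation by domain puts all of them in a single superfamily. Members are known in other plants for moving lipids to the cuticle, for wall and vascular development and for defence, and a lipid-transfer protein of the apple peel is a known food allergen. Glycolipid transfer proteins are caught by the same words but have another fold and act inside the cell.

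Counts were low in both libraries. The central library held 18483 mapped sequences and the lateral library 18368. Per the file headers these are trimmed contigs, assembled stretches of reads, and the reads that went into each contig are not counted. A gene model with 1 sequence held 0.00541% of the central library, with a 95% exact Clopper-Pearson interval from 0.000137% to 0.0301%. For a gene model with 0 sequences, a set limit of 3 sequences corresponds to 0.0162% of the central and 0.0163% of the lateral library. This limit is not the exact interval, which at 0 sequences reaches 0.0200% of the central and 0.0201% of the lateral library. Intervals and limits cover counting error only. They treat each contig as an independent draw, which assembled contigs need not be, so they do not measure the error of expression. Words fixed for epidermal identity found 0 gene models, and no marker defines a pedicel, so the tissue labels were not checked against expression.

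The superfamily was present in both libraries at similar, low summed counts. It held 24 sequences in the central library, 0.130% of the total (95% exact interval 0.0832% to 0.193%), and 27 in the lateral library, 0.147% (0.0969% to 0.214%). The log2 ratio of the sums, lateral over central and scaled by the library totals, was 0.18, with a 95% exact interval from -0.67 to 1.04. That interval includes no difference and, near its ends, sizeable differences in either direction, so the sums do not show that the 2 libraries were alike. In bulk samples, fewer cells of a type and less RNA per cell cannot be told apart.

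Of the 139 gene models, 30 (21.6%) had at least 1 sequence and 109 had none. Over all gene models, 28.9% had a sequence. The superfamily is short. The deposited gene length is called coding length here, since it is a multiple of 3 for 134 of the 139 members and for 92.2% of all gene models. The median was 477 bases, with quartiles at 351 and 661.5 bases, against a median of 879 bases over all gene models. Among all gene models between these quartiles, 15.4% had a sequence. The detected members had a median length of 513.5 bases and the undetected ones of 420.0 bases. The share detected was thus below that of the whole table. It was above that of gene models between the quartiles, a range that leaves out the shortest and the longest members.

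The annotation splits the 139 gene models into 4 kinds, of which the glycolipid transfer proteins are no members of the superfamily by fold but are kept in its counts by the rule. Gene models annotated as bifunctional inhibitor, plant lipid transfer protein or seed storage protein numbered 72, of which 13 were detected, with 11 central and 13 lateral sequences. Those annotated as plant lipid transfer protein and hydrophobic protein, with a helical fold, numbered 55, of which 14 were detected, with 11 and 12. The 4 gene models whose annotation also names the trypsin-alpha amylase inhibitor held 2 central sequences and 1 lateral sequence over 2 detected genes. The 8 glycolipid transfer proteins held 0 and 1, all from MDP0000157109. Without them, 131 gene models held 24 central and 26 lateral sequences. Both large kinds were therefore seen in both libraries, and the glycolipid transfer proteins in the lateral library with a single sequence.

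**Figure D1:**
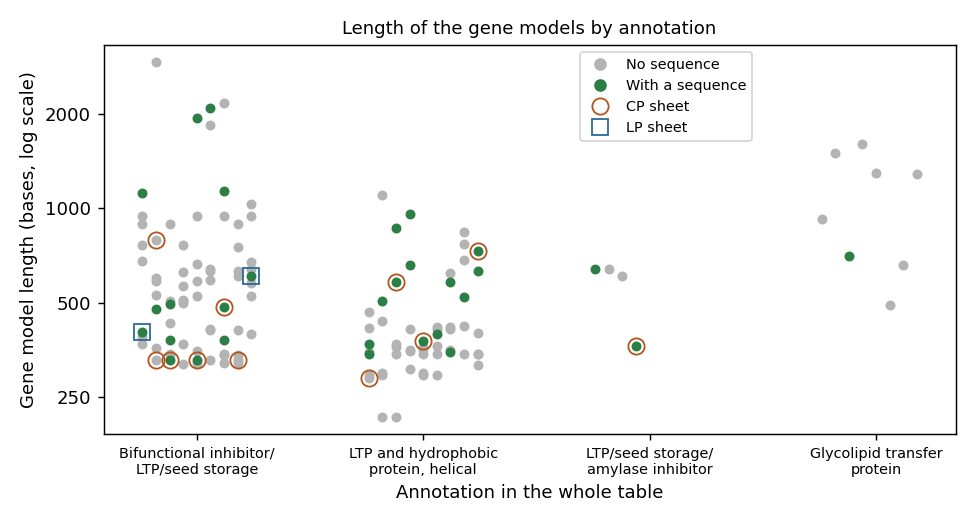
Coding length in bases (log scale) of the 139 gene models by their annotation in the whole table; each point is a gene model, green where it had a sequence in either library and grey where it had none, with a ring for the CP sheet and a square for the LP sheet. The plant lipid transfer proteins with a helical fold reach from 216 to 1104 bases, and 4 of the ringed gene models share a length of 327 bases.

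Most detected members had the same count in both libraries. Exactly 1 sequence in each was found for 16 of the 30 detected members (53.3%), against 24.1% of all detected gene models. MDP0000137366, with the highest count of the superfamily and a long coding length of 2094 bases, had 2 sequences in each library. Equal counts were thus held by 17 members (56.7%), against a background of 28.4%. More sequences in the central library were held by 5 members (16.7%), against 36.2% of all detected gene models. More in the lateral library were held by 8 members (26.7%), against 35.4%. With contigs as the counted unit, an equal count does not show equal expression.

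The widest gaps were 2 sequences. MDP0000215774, a helical plant lipid transfer protein, had 2 central sequences and 0 lateral ones. MDP0000304462, annotated as bifunctional inhibitor, plant lipid transfer protein or seed storage protein, had 0 central and 2 lateral sequences. All 4 of these sequences were uniquely mapped. The other unequal members differed by 1 sequence. Higher in the central library by 1 sequence were MDP0000307717 and MDP0000436006, of the bifunctional inhibitor kind, MDP0000781178 of the helical kind, and MDP0000906542, which names the amylase inhibitor. Higher in the lateral library by 1 sequence were MDP0000613572 and MDP0000887949 of the bifunctional inhibitor kind, MDP0000039357, MDP0000265942, MDP0000351526 and MDP0000477771 of the helical kind, and the glycolipid transfer protein MDP0000157109. Among these, MDP0000436006 and MDP0000613572 have the same coding length, 381 bases, and their single sequences came from opposite libraries.

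**Figure D2:**
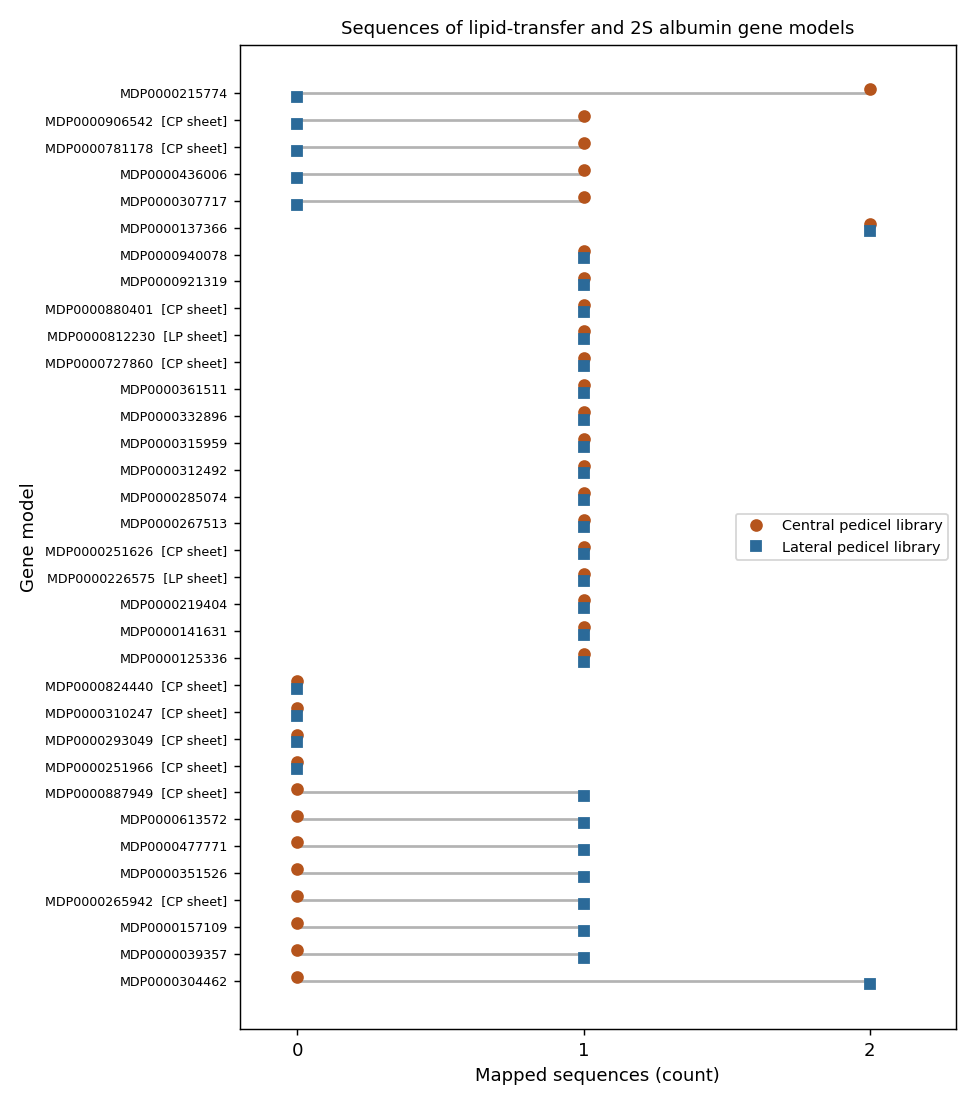
Mapped sequences per gene model in the central library (circles) and the lateral library (squares), 1 library each, for the 30 members with a sequence and the 4 sheet members with none; brackets give the authors' sheet. Counts run from 0 to 2, and 16 pairs of symbols sit together at 1 sequence in each library.

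None of these gaps could be called. By the two-sided Fisher exact test with Benjamini-Hochberg adjustment over the 24 gene models of the table with at least 10 sequences, 0% were called, and 0 members reached that minimum. With no minimum, 0 of 30 members and 0 of all 18337 detected gene models were called by the same exact test. The smallest unadjusted exact p of a member was 0.248, for MDP0000304462, and 0 members had one under 0.05, against 4 gene models of the whole table. edgeR's negative binomial exact test, with an assumed coefficient of variation of 0.4, called 0 of the 24 gene models and gave 0 an unadjusted p under 0.05. At 4 sequences, the most that any member had, even a split with all of them in the lateral library would give an exact p of 0.0617. The tests therefore do not bear on whether a member differed.

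The authors' deposited table gives another count. Its Kal's Z-test at an FDR under 0.05 called 5 of the 139 members higher in the central library, against 9.8% of all gene models. It called 8 of the 139 higher in the lateral library, against 9.71% of all gene models. These 13 are the 13 members with unequal counts, and for 11 of them the gap is a single sequence. Per length, a single sequence weighs more in a short gene. Where detected, members had a deposited RPKM (sequences relative to coding length and to the library total) from 47.7 to 165 in the central and from 48.5 to 166 in the lateral library. The highest RPKM in each library, in the central one MDP0000880401 and in the lateral one that gene model together with MDP0000887949, rested on 1 sequence of a 327-base gene model.

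The authors' sheets of differing genes listed the superfamily mostly under CP. They are headed CP and LP, read here as central and lateral pedicel, and name NOISeq as the program used. The CP sheet held 11 of the 139 gene models (7.91%), where it held 1.33% of all gene models. The LP sheet held 2 (1.44%), where it held 1.17% of all. Among all gene models between the length quartiles of the members, 1.82% were on the CP and 1.05% on the LP sheet. Put the other way, members were 1.30% of the 844 CP entries and 0.270% of the 741 LP entries. The authors chose both sheets on these same libraries, so the counts are a description and carry no test. All 13 entries have the same sheet description, naming the bifunctional inhibitor, the lipid-transfer protein and the 2S albumin, and none (0) has a gene ontology term. The sheets also match each entry to an Arabidopsis gene, 8 different ones for the 11 CP members and 2 for the LP members.

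The largest set of members was matched to a single Arabidopsis gene. The CP sheet matched 4 gene models to AT5G48485.1, more than to any other Arabidopsis gene on it. The next most frequent matches had 3 entries each, and 674 of 730 matches on the sheet had 1. In Arabidopsis this locus is known as DIR1, a lipid-transfer protein needed for the long-distance signal of systemic acquired resistance. The 4 gene models are MDP0000824440, MDP0000310247, MDP0000887949 and MDP0000880401, and each has a coding length of 327 bases. In the authors' deposited table of CP entries the FDR is 0 for the first 3 and 7.41e-14 for MDP0000880401. In the whole table, MDP0000824440 and MDP0000310247 had no sequence in either library. MDP0000887949 had 0 central sequences and 1 lateral sequence, and MDP0000880401 had 1 and 1. Summed over the 4, this was 1 central sequence against 2 lateral ones, more in the library that the CP sheet is not named for.

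None of those 3 sequences was uniquely mapped (0 unique in either library), so each could also have come from another gene model, and how the counting split them is not known here. MDP0000893990, the fifth member of 327 bases, had no sequence, was on neither sheet and is named here after its values were seen. Over all 30 detected members, 4 (13.3%) had no uniquely mapped sequence, against 11.6% of all detected gene models. Besides the 2 DIR1 matches these were MDP0000039357 and MDP0000219404, also named after their values were seen. Of the members' sequences, 86.3% were uniquely mapped, against 89.3% over the whole table.

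MDP0000727860 was matched on the CP sheet to AT5G48490.1, the neighbouring Arabidopsis locus, known there as a DIR1-like protein. It had 1 central and 1 lateral sequence, both uniquely mapped, and the authors' deposited table gives it an FDR of 1.26e-06, the highest of the 13. With it, 5 of the 11 CP entries were matched to DIR1 or its neighbour.

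The CP sheet also held MDP0000293049, matched to AT5G64080.2, which in Arabidopsis encodes a xylogen protein, an extracellular lipid-transfer domain proteoglycan that acts in vascular differentiation. It had no sequence in the whole table, yet the authors' deposited table of log2 ratios gives it 2.66. The other member with a deposited log2 ratio is MDP0000251626, matched to AT3G22142.1, at 2.16, with 1 sequence in each library. These are 2 of the 215 genes with a deposited ratio. The 78 CP entries with a ratio lie between 1.95 and 5.16, with a median of 2.52, all with the sign as deposited. The first line of that table gives its direction as lateral over central, whereas both genes are on the sheet headed CP. In that table all 78 CP ratios are positive and all 113 LP ratios are negative, from -6.14 to -1.98. The sign is printed as deposited and not used as a direction. The value 2.16 is shared exactly by 5 genes of that table and 2.66 by 2, at a tolerance of 1e-09.

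The remaining CP entries were MDP0000781178 (AT1G55260.1) and MDP0000906542 (AT5G55410.2), with 1 central and 0 lateral sequences each, MDP0000265942 (AT2G45180.1), with 0 and 1, and MDP0000251966 (AT3G18280.1), with none. In the authors' deposited table the FDR is 4.36e-13 for MDP0000781178 and 7.41e-14 for MDP0000906542. For MDP0000265942 and MDP0000251966 it is 0. An FDR of 0 was thus deposited for 7 of the 11 CP members, against 19.4% of all CP entries. None of these 7 had more central than lateral sequences in the whole table. No LP member had an FDR of 0, against 24.7% of all LP entries.

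Both LP entries had equal counts. MDP0000226575 was matched to AT3G43720.1, in Arabidopsis a GPI-anchored lipid-transfer protein (LTPG2) that takes part in the export of wax to the surface. It had 1 sequence in each library and an FDR of 1.47e-07 in the authors' deposited table. MDP0000812230, matched to AT1G62790.2, also had 1 and 1, with an FDR of 2.73e-12 there. The 8 Arabidopsis genes matched by the CP members and the 2 matched by the LP members had none in common (0 shared).

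**Figure D3:**
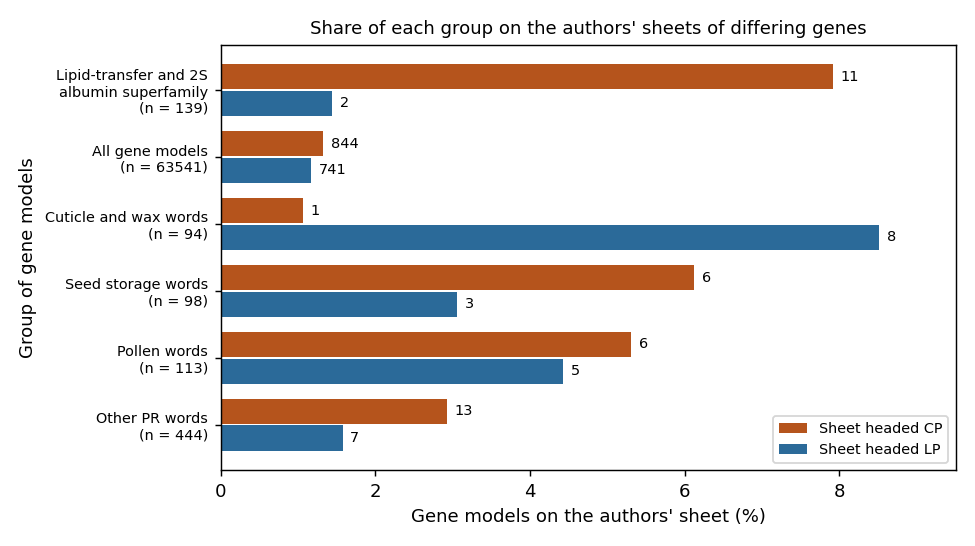
Percentage of gene models of each group that the authors list on their CP and LP sheets, with the number of gene models at the end of each bar. The word groups, unlike the superfamily, can hold gene models found only by their sheet description. The superfamily has 7.91% on the CP and 1.44% on the LP sheet, and the gene models found by cuticle and wax words 1.06% and 8.51%; of the 444 found by words for other pathogenesis-related (PR) families, 264 are ERF transcription factors.

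The counts in the whole table were split among the CP members. Of the 11 CP members, 2 had more sequences in the central library, 2 more in the lateral library, 3 had equal counts and 4 had no sequence. Of all 844 CP entries, 287 had more in the central, 137 more in the lateral library, 230 had equal counts and 190 had none. The sources used here do not say which counts the sheets were computed from.

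Genes of neighbouring pathways were counted by words in the annotation of the whole table or in the sheet descriptions. A gene model found by its sheet description alone is on a list because it is on that sheet. This can raise the sheet shares and shift the summed sequences of these lists. Words for cuticle and wax genes found 94 gene models, 79 of them annotated as GDSL lipases in the whole table, a broad family of esterases. They held 16 central and 26 lateral sequences, 1 was on the CP sheet and 8 were on the LP sheet. The LP entries were 5 GDSL lipases, 3-ketoacyl-CoA synthase 10, of the family that elongates fatty acids for waxes, glycerol-3-phosphate acyltransferase 6, which makes cutin precursors in Arabidopsis, and glycerol-3-phosphate acyltransferase 9. The counts on the sheets leaned the other way from those of the superfamily, and the difference was not tested. All of these 1 CP and 8 LP entries were found by the sheet descriptions. The annotation of the whole table found the superfamily in full, so the 2 groups were not chosen alike.

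Words for other pathogenesis-related families found 444 gene models with 117 central and 109 lateral sequences, of which 13 were on the CP and 7 on the LP sheet. Without the ERF transcription factors, whose domain name holds the same words, 180 gene models held 42 and 42 sequences, with 9 on the CP and 4 on the LP sheet. These sheet entries were found by their domain annotation in the whole table or by their description on the sheet. Searched in the sheet descriptions alone, the same words found 7 CP entries, namely 3 dirigent-like proteins, a thaumatin, a chitinase, beta-1,3-glucanase 3 and a pathogenesis-related family protein, and 0 LP entries. Words for seed storage and oil body proteins found 98 gene models with 15 and 11 sequences, 6 on the CP and 3 on the LP sheet. Words for tapetum and pollen genes found 113 with 29 and 33 sequences, 6 on the CP and 5 on the LP sheet. Of these, 63 carry a pollen allergen domain that expansins share. None of these lists shared a gene model with the superfamily (0 shared), and the part of seed or pollen transcripts in its counts was not tested. The share on either sheet was 9.35% for the superfamily and 2.49% for all gene models. It was 9.57% for the cuticle and wax words, 9.18% for the seed words, 9.73% for the pollen words and 4.5045% for the other pathogenesis-related words. On the CP sheet alone the superfamily share, 7.91%, was above that of each list, the nearest being 6.12% for the seed words. Entries found by sheet description alone can raise the shares of the lists, and these differences were not tested.

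The median log2 ratio over the 30 detected members was 0.01, the same as over all 18337 detected gene models. This is the value that equal counts take after scaling by library totals that differ slightly, with 0.5 added to each count.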

How the data were processed

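The deposited table of the authors gives, per gene model and library, counts of mapped sequences, counts of uniquely mapped sequences, RPKM and gene length, and, for Kal's Z-test, a deposited p-value and FDR, all named in the file headers. The CP and LP sheets deposited by the authors give a p-value and FDR per gene from NOISeq, per the file headers. A last table deposited by the authors holds log2 ratios for 215 genes. The sources used here name no mapper, assembler or genome annotation release. In the whole table, 13 further columns of library values were not used. None (0) of the identifiers matched the RefSeq gene table, so no coordinates or sequences are printed.

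Counts were tested on the whole table with a two-sided Fisher exact test and Benjamini-Hochberg adjustment over gene models with at least 10 sequences. A call needed an adjusted p under 0.05 and a 2-fold difference, with 0.5 added. With 1 library per group, edgeR's quasi-likelihood test could not be fitted. Its exact test was run with an assumed coefficient of variation of 0.4. The Fisher test was also run on simulated data, whose outcome is not given here and is not used as support for any result. Members with more sequences in a library were meant to be counted on scaled values. Scaling moves every equal count to the lateral side, so equal counts are given apart.

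The members, word lists and tests were chosen with earlier results of these data known. Named genes are members on a sheet or with a deposited ratio, members with at least 4 sequences, and those of widest gap; others were named after their values were seen, among them all members with unequal counts. The subgroup words fixed for the superfamily separated only glycolipid transfer proteins, so the deposited annotation was used. The p-values cover counting error only, with contigs taken as independent draws. The tools were R 4.3.3 with edgeR 4.0.16, and Python 3.11.15 with scipy 1.17.1, pandas 2.3.3, matplotlib 3.10.9 and numpy 2.4.6.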

Additional observations from a re-analysis of the deposited data

How the results depend on the processing

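Of 25 alternative values, 21 stayed within 1.5 times the count or within the counting interval, 4 moved and 0 reversed. Not all of the 21 could have moved. No member had enough sequences to be called under any of the exact-test settings. The median log2 ratio was fixed by the 17 equal counts among the 30 detected members. The deposited Kal's Z-test and the treatment of equal counts were chosen after seeing the data. The deposited Z-test called 12403 gene models and 13 members where the Fisher exact test called 0, and the cause was not tested. Putting equal counts in the library with the higher scaled value gave 25 members with more in the lateral library in place of 8, by construction. Leaving out gene models without a counted sequence left 7 of 11 CP members and both (2) LP members. With each Arabidopsis match counted once, the CP members were 8, and at an FDR under 1e-06 they were 10. Of all 844 CP entries, 654 had a counted sequence and 623 an FDR under 1e-06, and they had 730 different matches. The log2 ratio of summed sequences lay between 0.12 and 0.24 over its alternatives. Scaling by TMM factors changed no call. It entered the fold difference only, and with a smallest adjusted Fisher exact p of 0.775 it could change none. The other pseudocounts, run for the median log2 ratio only, left that median at 0.01. No paired analysis was possible because each group has 1 library, and no library could be left out for the same reason. Low counts limit every value here, since no member had more than 4 sequences. These are contigs, so the counts do not give the read depth.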
